A study of Glycine max with 3 samples.

Results

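Sucrose synthase genes were examined in 3 compartments of the developing soybean (Glycine max) seed. The family was taken as 7 gene models listed by identifier, among them Glyma13g17420, which is the well-known SUS1, and all 7 were found among the 66210 gene models of the count tables. The list was drawn up by family membership, with no measured value in the rule. The tables do not annotate these identifiers, so the family name rests on the list alone, and further members of the family were not looked for. Sums, shares and counts over the family are therefore over these 7. The chromosome number in the identifiers places Glyma13g17420 on chromosome 13, Glyma15g20180 on chromosome 15, Glyma09g08550 and Glyma09g29710 on chromosome 9, Glyma02g40740 on chromosome 2, Glyma14g39070 on chromosome 14 and Glyma16g34290 on chromosome 16.

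Sucrose synthase splits sucrose, in the presence of UDP, into UDP-glucose and fructose, and the reaction is reversible. The UDP-glucose serves the making of cellulose, callose and other polymers, and the enzyme is known as a marker of organs that import sugar. In a legume seed the imported sucrose leaves the phloem in the maternal seed coat and has no direct cell-to-cell path from there into the embryo. The suspensor is regarded as a route of nutrients to the young embryo proper. Invertases are the other enzymes that split sucrose. They and the other genes of the pathway were not analysed here, because the identifiers in the tables are paired with no product names.

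Each compartment was represented by 1 RNA-seq library from plants of the cultivar Asgrow A3237, with no treatment or mutation named in the labels. The tissue was isolated by laser capture microdissection of paraffin-embedded seeds. The embryo proper, which goes on to form the plant, and the suspensor, the short-lived stalk below it, came from globular-stage embryos in pods of 0.5 to 1.2 cm and were cut from sections of 6 µm. The parenchyma layer of the seed coat, a maternal tissue, came from early maturation seeds of 6.0 to 7.0 mm and was cut from sections of 8 µm on another microdissection instrument. In the seed coat library, tissue, stage, section thickness and instrument therefore cannot be told apart. The labels do not say how many seeds or plants went into a library, and the identity of the captured regions was not checked against marker genes. Reads assigned to gene models numbered 11603055 from the embryo proper, 8365831 from the suspensor and 11894273 from the seed coat, as the parenchyma layer is called from here on. With 1 library per compartment there is no replicate and no test. Every interval below is a 95% interval for counting error only, computed as if each read were an independent molecule. Amplified reads are not independent molecules, so the intervals may be too narrow even for counting error. Levels are TMM-scaled CPM, which are reads per 1000000 library reads after a correction for library composition.

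Taken over the 7 gene models, sucrose synthase reads made up the smallest part of the embryo proper library and the largest part of the seed coat library. They numbered 2237 in the embryo proper, or 0.0193% of its reads (Wilson interval 0.0185 to 0.0201%). The suspensor library held 4754, or 0.0568% (0.0552 to 0.0585%). The seed coat library held 11132, or 0.0936% (0.0919 to 0.0953%). On the TMM scale the summed levels were 194, 683 and 774 CPM, in the same order. The sum was thus 3.52-fold higher in the suspensor than in the embryo proper (interval 3.35 to 3.71) and 3.99-fold higher in the seed coat than in the embryo proper (3.81 to 4.18). Between the seed coat and the suspensor it differed by 1.13-fold (1.09 to 1.17) with TMM scaling and by 1.65-fold on unscaled totals. A lower level in captured tissue can come from fewer cells that express a gene or from less RNA in each, and these cannot be told apart.

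The number of gene models with any reads also differed. In the seed coat all 7 had reads, in the embryo proper 5, and in the suspensor 4. The matching share over all gene models is not given here, and the libraries differ in depth. These numbers are therefore a description and no trait of the family. Glyma02g40740 and Glyma09g29710 had 0 reads in both embryo regions, and Glyma14g39070 had 0 reads in the suspensor.

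**Figure D1:**
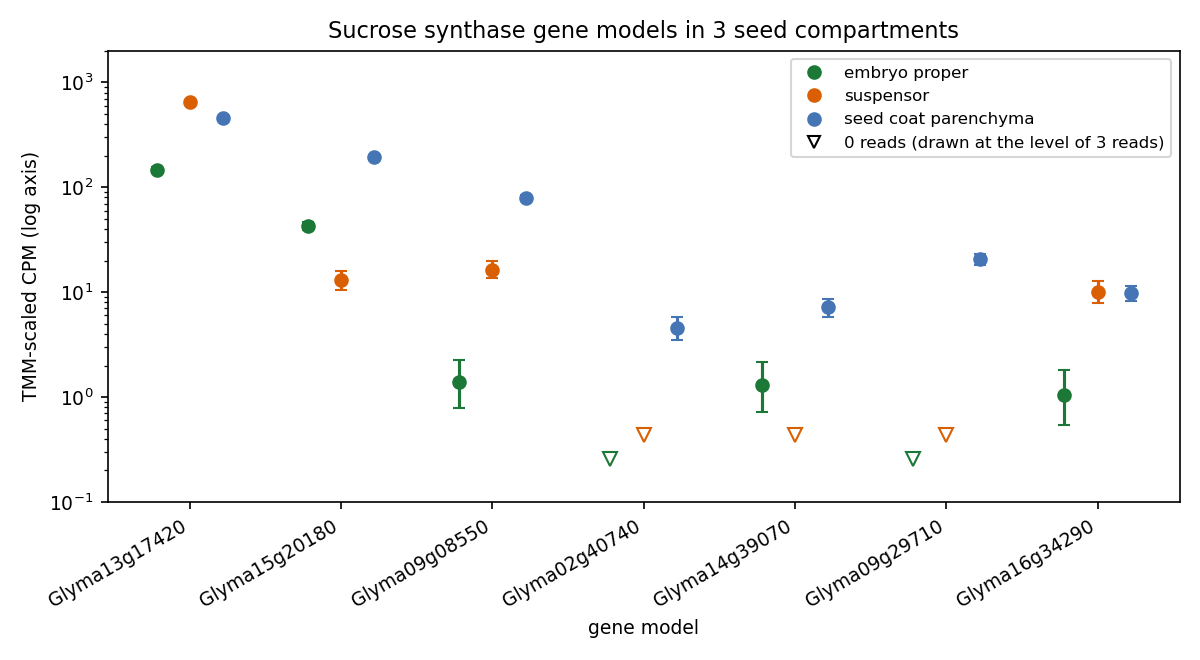
TMM-scaled CPM on a log axis for each of the 7 gene models, with 1 point per library and bars for the exact Poisson 95% interval of the read count. Open triangles mark 0 reads and are drawn at the level of 3 reads. Glyma13g17420 reached 643.7 CPM in the suspensor, while 5 of the other 6 gene models were highest in the seed coat, and the intervals of Glyma16g34290 overlap between suspensor and seed coat.

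Glyma13g17420 (SUS1) supplied most sucrose synthase reads in each library, on a scale of reads and not per length, and was the gene model behind the high family sum of the suspensor. It had 1700 reads from the embryo proper, 4479 from the suspensor and 6607 from the seed coat. These counts correspond to 147 CPM (exact Poisson interval 140.5 to 155), 643.7 CPM (625 to 663) and 459 CPM (448 to 470.4). The embryo proper was the low library, and the suspensor stood above the seed coat on this scale. The level was 4.37-fold higher in the suspensor than in the embryo proper (exact Clopper-Pearson interval 4.13 to 4.62), and 3.12-fold higher in the seed coat than in the embryo proper (2.95 to 3.29). Of the 19940 gene models that averaged 5 CPM or more, 12.9% were shifted further towards the suspensor against the embryo proper than SUS1.

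The order of suspensor and seed coat for SUS1 depended on the scaling. With TMM scaling the level was 1.40-fold higher in the suspensor (1.35 to 1.46). With unscaled totals the suspensor stood at 535 CPM and the seed coat at 555 CPM, so that the seed coat was 1.04-fold higher, with an interval of 0.999 to 1.08 that includes 1. With totals that leave out the 50 most abundant gene models of each library the suspensor was 1.12-fold higher. Against the embryo proper, both other libraries were higher under every scaling tried, by 3.65- to 4.72-fold for the suspensor and by 2.90- to 3.79-fold for the seed coat.

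**Figure D2:**
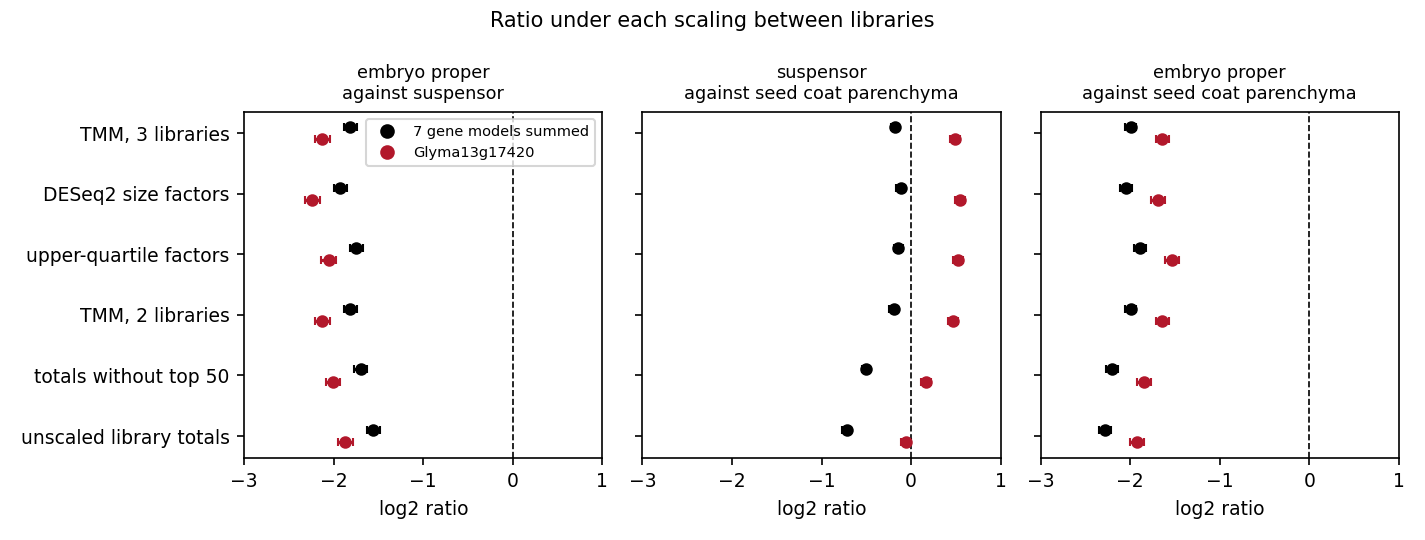
Log2 ratio of the first to the second named library for the sum of 7 gene models (black) and for Glyma13g17420 (red), under each scaling between libraries, with bars for the 95% counting interval. Points left of the dashed line are higher in the second library. The Glyma13g17420 ratio of suspensor to seed coat runs from 1.47 with DESeq2 size factors to 0.964 with unscaled totals, and no other ratio drawn crosses the line.

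The make-up of the family reads does not depend on scaling between libraries, and it differed between all 3 libraries. SUS1 took 94.2% of the suspensor's sucrose synthase reads (Wilson interval 93.5 to 94.8%), against 76.0% in the embryo proper (74.2 to 77.7%) and 59.4% in the seed coat (58.4 to 60.3%). No pair of these intervals overlaps. Shares are of reads and are not corrected for the length of the gene models, so they compare libraries for 1 gene model and do not rank gene models within a library. Without SUS1, the remaining 6 gene models had 537 reads from the embryo proper, 275 from the suspensor and 4525 from the seed coat. Their sum was 1.18-fold higher in the embryo proper than in the suspensor (1.02 to 1.37), which is the opposite direction to the full sum, and 7.96-fold higher in the seed coat than in the suspensor (7.04 to 9.02).

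**Figure D3:**
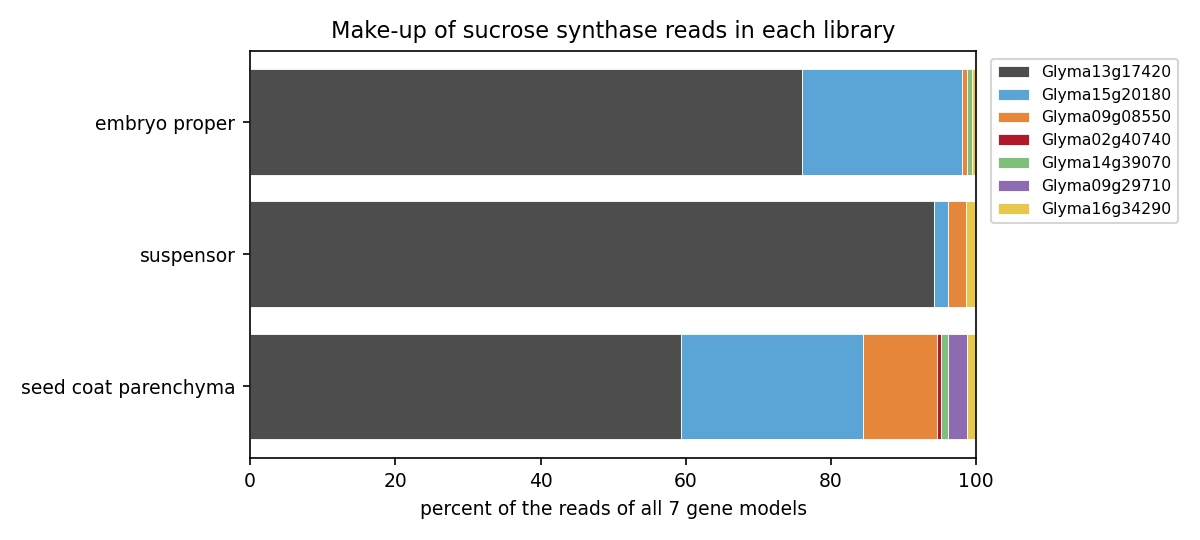
Percent of the reads of all 7 gene models that came from each of them, with 1 bar per library. The dark segment, Glyma13g17420, fills 94.2% of the suspensor bar and 59.4% of the seed coat bar, where Glyma15g20180 and Glyma09g08550 fill 25.0% and 10.2%.

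Glyma15g20180 had the opposite order to SUS1 inside the embryo. It had 494 reads from the embryo proper, 91 from the suspensor and 2782 from the seed coat, or 42.8, 13.1 and 193 CPM. The seed coat was highest and the suspensor lowest. The level was 3.27-fold higher in the embryo proper than in the suspensor (2.61 to 4.14), and 14.8-fold higher in the seed coat than in the suspensor (12.0 to 18.4). Against the embryo proper the seed coat was 4.51-fold higher (4.10 to 4.98). Its share of the family reads was 25.0% in the seed coat (24.2 to 25.8%), 22.1% in the embryo proper (20.4 to 23.8%) and 1.91% in the suspensor (1.56 to 2.34%).

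Glyma09g08550 was scarce in the embryo proper, intermediate in the suspensor and highest in the seed coat. It had 16 reads from the embryo proper, 114 from the suspensor and 1138 from the seed coat, or 1.39 CPM (0.793 to 2.25), 16.4 CPM (13.5 to 19.7) and 79.1 CPM (74.6 to 83.8). No pair of these intervals overlaps. The level was 11.8-fold higher in the suspensor than in the embryo proper (6.97 to 21.4) and 57.0-fold higher in the seed coat than in the embryo proper (35.0 to 100.1). Against the suspensor the seed coat was 4.83-fold higher (3.98 to 5.91). The seed coat to embryo proper ratio was the largest of the family among ratios with reads on both sides. Of the gene models compared, 2.71% were shifted further towards the seed coat. The share of Glyma09g08550 in the family reads was 10.2% in the seed coat, 2.40% in the suspensor and 0.715% in the embryo proper.

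The balance of Glyma15g20180 to Glyma09g08550 differed between the embryo regions. In the embryo proper there were 30.9 reads of Glyma15g20180 for each read of Glyma09g08550, compared with 2.44 in the seed coat and 0.798 in the suspensor. The conditional estimate of the ratio of the embryo proper value to the suspensor value was 38.4 (exact conditional interval 21.4 to 72.8). This ratio needs neither a gene length nor a scaling between libraries. It was the largest among all pairs of the family with reads in both libraries compared, and its interval makes no allowance for that choice. How reads that fit more than 1 gene model were counted is not given in the sources used here, so reads of closely similar copies may be split between them, and sequence similarity among the 7 was not analysed here.

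Glyma16g34290 was low in the embryo proper, and its levels in the other libraries had overlapping intervals. It had 12 reads from the embryo proper, 70 from the suspensor and 141 from the seed coat, or 1.04 CPM (0.538 to 1.82), 10.1 CPM (7.84 to 12.7) and 9.80 CPM (8.25 to 11.6). The suspensor was 9.67-fold higher than the embryo proper (5.20 to 19.6) and the seed coat 9.42-fold higher (5.23 to 18.7). The ratio of suspensor to seed coat was 1.03 with an interval of 0.759 to 1.38, which includes 1. With unscaled totals it was 0.706 and the seed coat was then 1.42-fold higher (1.06 to 1.91), so the overlap holds for the TMM scale. The reads of Glyma09g08550 per read of Glyma16g34290 were 1.33 in the embryo proper and 1.63 in the suspensor, and the ratio of these values was 0.819 with an interval of 0.341 to 2.02, which includes 1.

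The remaining gene models had few or no reads in the embryo regions. Glyma09g29710 had 0 reads from the embryo proper, 0 from the suspensor and 296 from the seed coat, or 20.6 CPM (18.3 to 23.1). With the libraries at 0 set to 3 reads each, the seed coat was 79.1-fold higher than the embryo proper and 47.7-fold higher than the suspensor. The lower ends of the counting intervals were 63.9-fold and 38.6-fold. At the seed coat level, 237 reads would have fallen in the embryo proper library and 143 in the suspensor library.

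Glyma02g40740 showed the same order at a lower depth. It had 0 reads from the embryo proper, 0 from the suspensor and 65 from the seed coat, or 4.52 CPM (3.49 to 5.76). By the same floor the seed coat was 17.4-fold higher than the embryo proper and 10.5-fold higher than the suspensor, with lower interval ends of 13.7-fold and 8.28-fold. Its seed coat level would have given 52.1 reads in the embryo proper and 31.4 in the suspensor. The floor of 3 reads lies at 0.260 CPM for the embryo proper library and 0.431 CPM for the suspensor library. The exact Poisson interval of a count of 0 reaches up to 0.320 CPM and 0.530 CPM in these libraries. Of 21205 gene models with at least 50 reads in the seed coat, 1329 (6.27%) had 0 reads in both embryo regions. Among the 7 sucrose synthase gene models 2 did, and they met the limit through the seed coat, where they were high. The limit of 50 was set after the values were seen, and the 21205 were not matched for read depth. These numbers are therefore a description and no trait of the family.

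Glyma14g39070 had reads in the embryo proper but not in the suspensor. It had 15 reads from the embryo proper, 0 from the suspensor and 103 from the seed coat, or 1.30 CPM (0.728 to 2.15), 0 CPM and 7.16 CPM (5.84 to 8.68). The seed coat was 5.50-fold higher than the embryo proper (3.19 to 10.2). It was 16.6-fold higher than the suspensor set at 3 reads, with a lower interval end of 13.3-fold. The embryo proper was 3.02-fold higher than the suspensor at that floor, with a lower interval end of 2.16-fold. At the embryo proper level 9.05 reads would have fallen in the suspensor library, so this difference rests on few reads.

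Counted over the family, every gene model was higher in the seed coat than in the embryo proper by more than counting error (7 of 7, where 40.0% of the 37899 gene models with reads in either library were called in that direction). Against the suspensor, 5 of 7 were higher in the seed coat, where the background was 42.2%. SUS1 was called higher in the suspensor, where the background was 30.9%, and Glyma16g34290 was called in neither direction. With unscaled totals that SUS1 call was lost and Glyma16g34290 was higher in the seed coat. Between the embryo regions, 3 of the 5 gene models with reads were higher in the suspensor (SUS1, Glyma09g08550 and Glyma16g34290), where the background was 33.4%, and 2 were higher in the embryo proper (Glyma15g20180 and Glyma14g39070), where it was 39.3%. With only 7 gene models, these counts are a description and no test of the family. The backgrounds take in every gene model with any read in either library, also those with too few reads to be called. They were not matched to the read depth of the 7, so the shares are not like for like. The comparisons also share libraries, so their counts are not independent.

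Differences of at least 4-fold on the log2(CPM + 1) scale were counted for the 5 that averaged 5 CPM or more over the 3 libraries, since Glyma02g40740 and Glyma14g39070 lay below that minimum with means of 1.51 and 2.82 CPM. Glyma09g29710 passed the minimum only through the seed coat and so had to differ in the comparisons with that library. Glyma16g34290 (1.04 CPM in the embryo proper) and Glyma09g08550 (1.39 CPM) passed it only through the suspensor and seed coat. The minimum itself thus favoured a large difference from the embryo proper for both. They remain in every count below of gene models lower in the embryo proper. Of the gene models in those counts, only SUS1 and Glyma15g20180 exceeded 5 CPM in the embryo proper itself, at 147 and 42.8 CPM. SUS1, Glyma16g34290 and Glyma09g08550 passed 4-fold towards the suspensor against the embryo proper (3 of 5, background 14.0%), and 0 passed it towards the embryo proper (background 15.2%). Glyma15g20180, Glyma09g08550 and Glyma09g29710 passed it towards the seed coat against the suspensor (3 of 5, background 18.7%), and 0 in the other direction (background 14.9%). In the seed coat against the embryo proper the count was 4 of 5 (background 15.0%), with SUS1 the exception at a log2 difference of -1.63 (embryo proper minus seed coat), and 0 passed it towards the embryo proper (background 13.7%). SUS1 lay close to the limit between the embryo regions, at a log2 difference of -2.12 (embryo proper minus suspensor), and with unscaled totals its ratio was 3.65. Without Glyma09g29710 the counts were 3 of 4 towards the suspensor against the embryo proper, 2 of 4 towards the seed coat against the suspensor and 3 of 4 towards the seed coat against the embryo proper. The median log2 differences of these 4 were -2.28 for embryo proper against suspensor, -1.08 for suspensor against seed coat and -2.28 for embryo proper against seed coat. With Glyma09g29710 they were -2.12, -2.20 and -2.40, so among gene models past the minimum the suspensor against seed coat median rested on it. Over all 7 gene models, with no minimum, the medians were 0.00, -2.46 and -2.40. The first median therefore depended on the minimum. Glyma02g40740 and Glyma09g29710, with 0 reads in both embryo regions, count there as a difference of 0. Over all 19940 gene models compared the medians were 0.00, 0.02 and 0.05. These counts and medians are a description only.

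**Figure D4:**
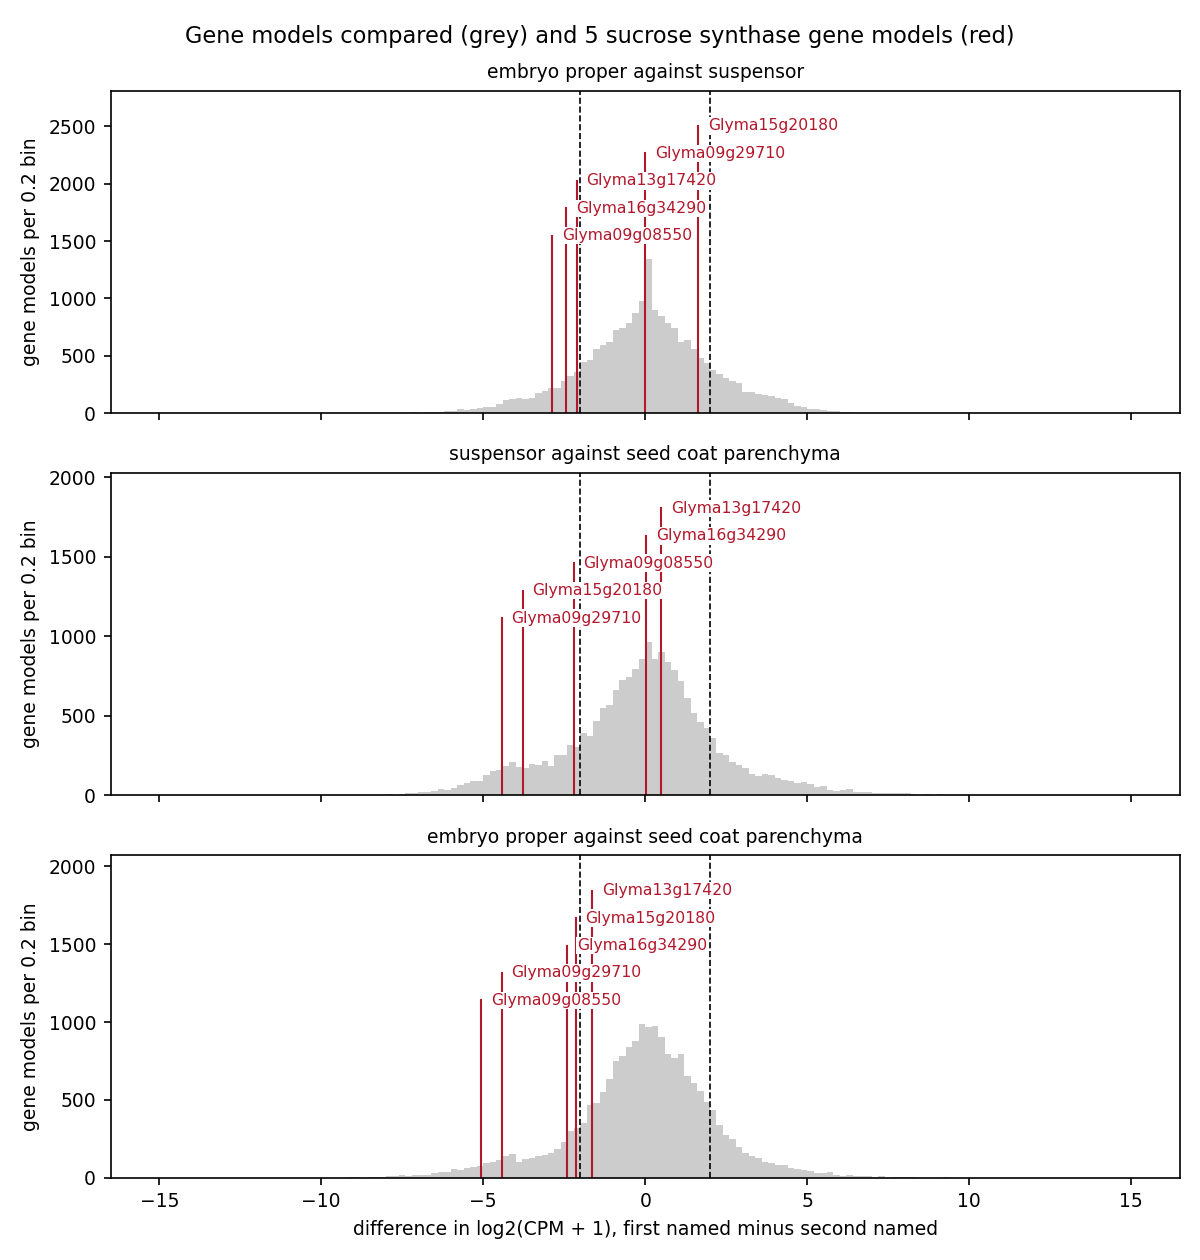
Distribution of the difference in log2(CPM + 1) over 19940 gene models (grey, counted in bins of 0.2) for each comparison, with red lines at the 5 sucrose synthase gene models that averaged 5 CPM or more and dashed lines at 4-fold. Values below 0 are higher in the second named library, and all 5 red lines lie below 0 for embryo proper against seed coat. Line heights only keep the labels apart.

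Few gene models had the levels of SUS1 in all 3 libraries, and the same held for Glyma15g20180 and Glyma09g08550. Likeness was taken as the Euclidean distance over the 3 libraries on the log2(CPM + 1) scale, which joins level and pattern and is not corrected for length. Within a distance of 0.5 there were 3 of 19935 other gene models for SUS1, 4 for Glyma15g20180, 3 for Glyma09g08550, 34 for Glyma16g34290 and 291 for Glyma09g29710. For Glyma02g40740 and Glyma14g39070, whose own levels lie below the minimum of the models searched, there were 0. The 2 gene models nearest to SUS1 were Glyma02g44220 on chromosome 2, at a distance of 0.34, and Glyma18g02210 on chromosome 18, at 0.41. In the order embryo proper, suspensor and seed coat, Glyma02g44220 had levels of 142, 569.6 and 376 CPM and Glyma18g02210 had levels of 126, 816 and 461 CPM.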

How the data were processed

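For each library the authors deposited 1 table with a count of mapped reads per gene model, per the file headers. The submitters' processing notes name the aligner Bowtie. Not given in the sources used here are its version, the build and annotation, the strand setting and the treatment of reads with several hits. The reference table used here (59048 genes) matched 0 of the 66210 identifiers, so no sequence, position, length or product name is given.

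Library totals were scaled with TMM factors from edgeR 4.0.16 in R 4.3.3 (embryo proper 0.994, suspensor 0.832, seed coat 1.21). Ratios are of scaled counts with exact Clopper-Pearson 95% intervals, levels have exact Poisson intervals and shares Wilson intervals. A count of 0 was set at 3 reads. Differences on the log2(CPM + 1) scale were counted at 4-fold, which understates the change of low genes. With 1 library per group no test was made. The steps were tested on simulated data with Python 3.11.15, NumPy 2.4.6, pandas 2.3.3, SciPy 1.17.1 and matplotlib 3.10.9. Alternatives were DESeq2 1.42.0 size factors, other scalings, thinning to 8365831 reads, other constants, minimums and fold sizes. The gene models named were the 7 members and the 2 nearest to SUS1. The rule for the members uses no measured value, but the family, the lists and the limits were picked with earlier results of these data known. The count by interval, the ratios between members and the minimum of 50 reads were added after the values were seen.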

Additional observations from a re-analysis of the deposited data

How the results depend on the processing

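No paired analysis was possible because each compartment has 1 library. Ratios here are of the first to the second named compartment. The family ratio of embryo proper to suspensor, 0.284 with TMM, was 0.263 with DESeq2 size factors, 0.339 with unscaled totals, 0.308 without the 50 most abundant gene models and reversed to 1.18 without SUS1, which the removal of that gene model itself causes. The ratio of suspensor to seed coat, 0.883 with TMM, was 0.923, 0.607, 0.705 and 0.126 in the same order. The ratio of embryo proper to seed coat, 0.251 with TMM, was 0.269 with upper-quartile factors, 0.206 unscaled, 0.217 without the 50 most abundant and 0.148 without SUS1. The SUS1 ratio of suspensor to seed coat reversed from 1.40 to 0.964 with unscaled totals, which shift the median log2 difference of all gene models in that comparison from 0.02 to -0.54. That median was -0.31 without the 50 most abundant gene models and 0.08 with DESeq2 size factors. The cause of the shifts was not tested for any scaling. TMM factors from the embryo proper and 1 other library alone give the same ratios as over 3 libraries, because the embryo proper is the reference. Of the counts of members past 4-fold, those higher in the suspensor than in the embryo proper fell from 3 to 1 with 5 CPM added and to 0 at 8-fold, and at 2-fold 1 was higher in the embryo proper instead of 0. Those higher in the seed coat than in the suspensor rose from 3 to 5 with no minimum. Those higher in the seed coat than in the embryo proper fell from 4 to 2 at a minimum of 20 CPM and to 2 at 8-fold. The other 78 alternative counts, among them those without Glyma09g29710, which were added after the data were seen, stayed within 1.5 times the reported one. All 21 shares of the family reads stayed within their interval after thinning. The suspensor library is the smallest and was not thinned, so its shares could not move, and neither could shares of 0. Only the remaining shares of the embryo proper and the seed coat were open to change. Counts of 12 to 16 reads in the embryo proper limit the ratios of Glyma09g08550, Glyma14g39070 and Glyma16g34290.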

Other observations

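The gene models next to the sucrose synthase gene models in identifier order are described here by their counts. Of the 70 neighbours, 5 on each side of each member, 35 had 0 reads in all 3 libraries and 19 had a mean of at least 5 CPM. Among the 19 neighbours with that mean, 5 were past 4-fold towards the seed coat against the embryo proper (15.0% of all gene models compared). In the other direction there were 3 (13.7%). Between the embryo regions, 3 were past 4-fold towards the suspensor (14.0%) and 0 towards the embryo proper (15.2%). Between the suspensor and the seed coat, 3 were past 4-fold towards the suspensor (14.9%) and 3 towards the seed coat (18.7%). With so few neighbours these counts are values only. Beside SUS1, 5 of the 10 neighbours had 0 reads. The higher count of the adjacent pair of gene models, taken in each library separately, was 8574 reads from the embryo proper, 3022 from the suspensor and 927 from the seed coat. These values need not come from the same gene model. The adjacent gene models of Glyma09g08550 had 0 reads in every library.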
